A study of Mus musculus with 13 samples.

Results

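The ISG15 conjugation system comprises the genes of a small ubiquitin-like protein and of the enzymes that attach it to other proteins and take it off again. The 5 genes described here were chosen by name, and all 5 were among the 13222 genes listed: *Isg15* (the modifier), *Uba7* (its E1 activating enzyme), *Ube2l6* (its E2 conjugating enzyme), *Herc6* (the main E3 ligase for it in the mouse) and *Usp18* (the protease that removes it). All 5 passed the filter on low values. They were measured in 4T1-Thy1.1 cells, a mouse mammary carcinoma line of BALB/c origin that carries a Thy1.1 transgene. Every group was the same line, plated in 12-well plates and, per the labels, grown in DMEM/F12 with FBS. The study's methods name another medium, RPMI with FBS, for 4T1 culture. For 48 h the cells received no drug or cytokine (control, n = 3, replicates 1, 3 and 5), 200 ng/mL doxorubicin (DOX, an anthracycline that damages DNA, n = 4, replicates 1 to 4), both 200 ng/mL DOX and 25 ng/mL recombinant mouse IL-17A (DOX+IL-17A, n = 3, replicates 2, 3 and 5), or 25 ng/mL IL-17A alone (n = 3, replicates 2, 3 and 5). The cultures were of this single line, without stromal or immune cells by design. Some libraries held marker RNA of other cell types, which is given below. The labels do not say whether the replicates were separate cultures. The study's methods speak in general of at least 3 biological replicates, without describing those of these libraries. P-values therefore measure only the spread between these libraries.

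ISG15 is joined to lysines of its targets by a 3-step chain like that of ubiquitin. UBA7 activates it, UBE2L6 carries it and a ligase such as HERC6 passes it to the target. USP18 cleaves it off and, apart from this activity, restrains signalling at the type I interferon receptor. Type I interferon acts through receptor-bound kinases and a complex that holds STAT2 and IRF9 on interferon-stimulated response elements (ISREs) of its target genes, among which all the members of the system are counted. RNA levels do not show whether any protein was modified.

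The upstream sequence of the members differed in how it held the core of this element. Mouse promoter windows were taken from RefSeq (GRCm38.p6, the assembly of mm10), each spanning 250 bases before to 50 after a start site. A window was found for 4 of the 5 members, and *Usp18* had no entry. *Isg15* lies on the minus strand of chromosome 4 (156199424 to 156200818, mm10, GENCODE), with 2 exons. Its window held 3 overlapping matches of the ISRE core, which reads GAAA, any 2 bases and GAAA again. They begin 78, 72 and 66 bases before the start site. They are shown in capitals in the 250 bases upstream of the start (chr4:156200819-156201068, minus strand), because *Isg15* had the largest difference of the 5 genes.
*Isg15*: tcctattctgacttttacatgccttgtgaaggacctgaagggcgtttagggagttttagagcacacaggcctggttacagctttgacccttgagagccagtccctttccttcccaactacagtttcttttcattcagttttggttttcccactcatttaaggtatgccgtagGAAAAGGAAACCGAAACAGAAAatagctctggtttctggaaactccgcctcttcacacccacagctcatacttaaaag
*Uba7* lies on the plus strand of chromosome 9 (107975505 to 107984060), and no full match was in its window. A shorter form, AAANNGAAA, searched for only after the sequences had been read, matched in the opposite orientation, 27 bases before the RefSeq start site. It is shown in capitals, as its complement, within 30 bases (chr9:107975530-107975559, plus strand), which the GENCODE model places inside the gene. *Uba7* is shown because it was the member with the smallest difference between DOX and control.
*Uba7*: ctcagtctagTTTCACTTTtggtttcctga
*Herc6* (chromosome 6, 57581000 to 57664632, plus strand) held neither form, although its RNA rose with DOX. Its 250 upstream bases (chr6:57580742-57580991, plus strand) are shown for that contrast.
*Herc6*: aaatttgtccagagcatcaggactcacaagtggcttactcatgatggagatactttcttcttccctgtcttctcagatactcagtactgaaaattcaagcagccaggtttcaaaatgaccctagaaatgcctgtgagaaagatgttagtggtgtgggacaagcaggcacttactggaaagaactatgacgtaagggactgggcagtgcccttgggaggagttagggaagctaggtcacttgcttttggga
The window of *Ube2l6* (chromosome 2, 84798828 to 84810335, plus strand) held neither form either. Searched on both strands, the full core was present in 3.44% and the shorter form, which lies within the full core, in 10.6% of all 32851 windows of this length. The gamma-activated site TTCNNNGAA was present in 8.3% of windows and in none of the members'. A match here is a description of letters, not of binding, and a window without a match says nothing of elements elsewhere.

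Libraries were made by a 3′ tag protocol, so each value depends on reads at the end of the transcript. Reads on listed genes ranged from 4445592 to 16930600 per library, and a count of 3 reads corresponded to 0.183 to 0.613 in the TMM-scaled CPM that were deposited, the unit of all values below. The 8 epithelial carcinoma markers were all listed, and their summed level was 2163 to 2385 in control, 1094 to 1245 in DOX, 954 to 1188 in DOX+IL-17A and 1897 to 2239 in IL-17A libraries. Of 9 leukocyte markers, 5 were listed, and their summed level was 20.1 to 21.3, 27.4 to 63.8, 16.7 to 25.2 and 11.9 to 16.6 in the same order. The defining leukocyte gene *Ptprc* was at 0.0609 to 1.52 in control and 0.644 to 1.42 in DOX libraries. It was at 2.45 to 3.57 in DOX+IL-17A, above every library of the other groups, and at 0 to 0.314 in IL-17A libraries. *Cd3e* was not listed. *Csf1r* and *Cd68* went the other way when IL-17A was added to DOX. *Csf1r* was at 16.64 to 35.01 in DOX and 2.48 to 9.55 in DOX+IL-17A libraries. *Cd68* was at 9.09 to 17.96 in DOX and 6.16 to 6.87 in DOX+IL-17A libraries. For the remaining listed markers, *Itgam* and *S100a8*, these groups overlapped. In cultures of this kind fewer cells of a type and less RNA per cell cannot be told apart, and the part of these marker shifts in the results was not tested. Control replicate 1 stood apart on the second principal component, and DOX replicate 1 had high muscle marker RNA (summed level of 8 genes 229, against 3.93 to 24.6 in the other DOX libraries) and high red blood cell marker RNA (66.5, against at most 5.47). The 1 liver marker listed was at or under 2.25 in every library. All 4 members that rose with DOX also did so without these 2 libraries.

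DOX raised 4 of the 5 members. These were the modifier *Isg15*, the protease *Usp18*, the ligase *Herc6* and the E2 *Ube2l6*, and *Isg15* had the largest fold change. The E1 *Uba7* did not pass the test. Over all genes tested, 15.3% were called and 9.15% were called higher in DOX. To be called, a gene needed both a 2-fold change and an adjusted p below 0.05 (limma with trend on log2(value + 1), Benjamini-Hochberg adjustment over 12319 genes). The median log2 fold change of the members was 2.52, beside 0.09 for all genes tested. Groups did not overlap for 4 of the 5 members, beside 18.5% of all genes tested that lay wholly higher in DOX. With 4 against 3 libraries the exact 2-sided permutation test of a single gene cannot go below 0.0571, which each of these 4 members reached.

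**Figure D1:**
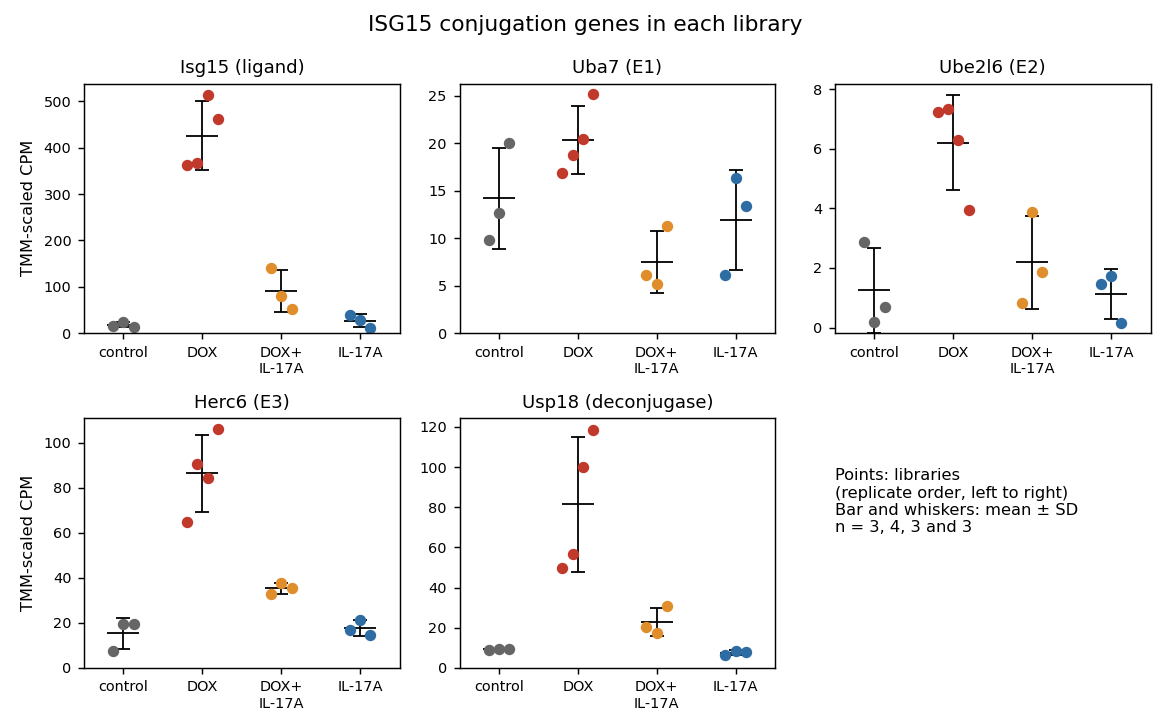
Values of the 5 members in TMM-scaled CPM (vertical axis) in each library (points) of the 4 groups, with the mean and SD of each group. All DOX libraries lie above all control libraries for *Isg15*, *Ube2l6*, *Herc6* and *Usp18*, and all DOX+IL-17A libraries lie below all DOX libraries for each member.

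*Isg15* stood at 16.1, 24.1 and 13.6 in the 3 control libraries. In the 4 DOX libraries it reached 362, 368, 513 and 462. No DOX library came near the controls, and the mean rose from 17.9 ± 5.51 (SD, n = 3) to 426 ± 74.1 (SD, n = 4), a ratio of 23.8. The fitted log2 fold change was 4.52 (SE 0.38, limma adjusted p = 4.04e-06). This scale adds 1 to each value and so understates the change of low genes. Of the other genes for ubiquitin and ubiquitin-like modifiers, 18 were tested, and all lay below *Isg15*, the highest being *Atg12* at 0.95.

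*Usp18* (chromosome 6, 121245906 to 121270917, plus strand) was tightly grouped in control libraries, at 8.97, 9.25 and 9.43. With DOX it reached 49.7, 56.9, 100.2 and 119. DOX replicates 3 and 4 were thus higher than replicates 1 and 2, and all 4 lay above every control. The mean rose from 9.22 ± 0.234 to 81.4 ± 33.4, a ratio of 8.83 (log2 fold change 2.92, SE 0.31, limma adjusted p = 2.64e-05). On this scale none of the 46 other ubiquitin-specific proteases tested lay higher.

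*Herc6* was at 7.27, 19.2 and 19.3 in control and at 64.6, 90.7, 84.3 and 106 in DOX libraries. Control replicate 1 was the lowest, and the groups were separate with or without it. The means were 15.3 ± 6.94 and 86.3 ± 17.1, a ratio of 5.65 (log2 fold change 2.52, SE 0.30, limma adjusted p = 8.06e-05). Among HECT ligases, the class to which *Herc6* belongs, 24 others were tested. The nearest, *Hecw2*, rose by a log2 fold change of 2.43 on the log2(value + 1) scale, from a mean of 0.707 in control to 8.05 in DOX libraries. Its ratio of means exceeded that of *Herc6*, so their order depends on the added 1. *Nedd4* and *Huwe1* fell by 1.38 and 1.30.

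*Ube2l6* was scarce throughout. It stood at 2.88, 0.183 and 0.707 in control libraries, on 17, 3 and 6 reads. In DOX libraries it stood at 7.24, 7.34, 6.29 and 3.93, on 90, 67, 45 and 44 reads. The lowest DOX library still lay above the highest control. The log2 fold change was 1.83 (SE 0.47, limma adjusted p = 0.012), but edgeR's quasi-likelihood test on the recovered reads did not call it (2.40, adjusted p = 0.0704). At so few reads the size depended on the method, since the ratio of means was 4.94 and the log2 fold change was 3.36 with voom and 2.80 with a pseudocount of 0.1, both above that of *Herc6*. Of 33 other E2 enzymes, only *Ube2g2*, an E2 of degradation at the endoplasmic reticulum, lay higher on the log2(value + 1) scale, at 1.99.

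*Uba7* was at 9.81, 12.7 and 20.04 in control and at 16.8, 18.7, 20.4 and 25.2 in DOX libraries. The groups overlapped, since control replicate 5 lay within the DOX range. The means were 14.2 ± 5.28 and 20.3 ± 3.6 and the log2 fold change was 0.53 (95% interval -0.24 to 1.30, limma adjusted p = 0.308), so a rise of more than 2-fold lies inside the interval. The 3′ end of *Uba7* lies within a second gene model on the same strand, *Gm20661*, which was not listed, and reads of the 2 models cannot be told apart by position. Of the 9 other E1 genes and partners tested none was called by limma, edgeR, DESeq2 or voom. Over all 12319 genes tested limma called 15.3%. At an unadjusted p under 0.05 there was 1 of the 9, beside 4491 of all genes tested. *Uba1*, the main E1 of ubiquitin, stood at -0.01 (SE 0.19).

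**Figure D2:**
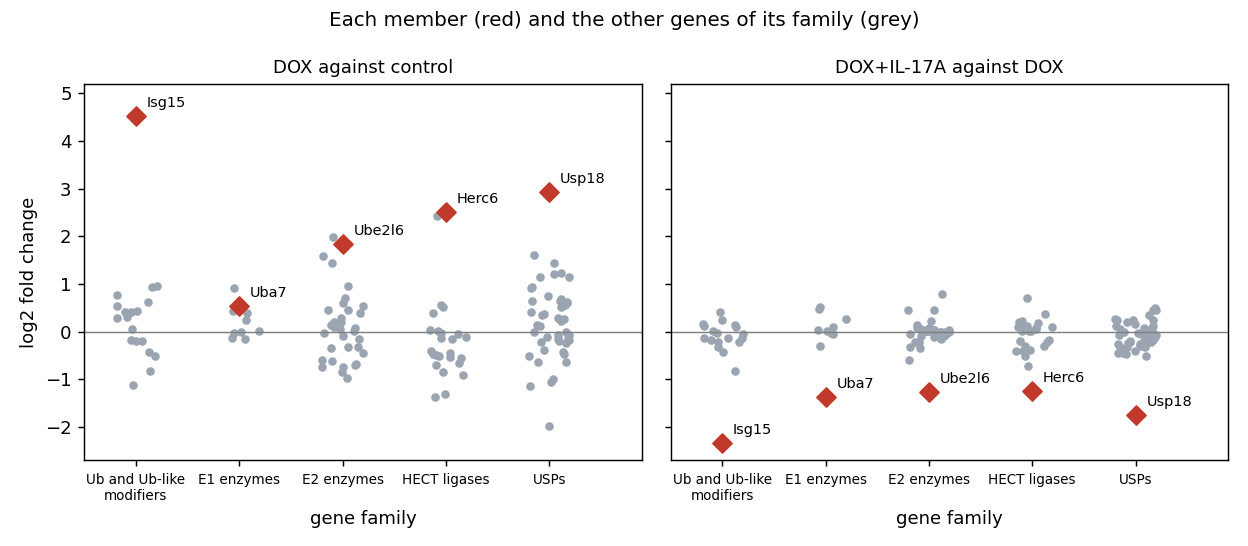
Fitted log2 fold change on the log2(value + 1) scale (vertical axis) of each member (red diamond) and of the other tested genes of its family (grey points), for DOX against control (left) and DOX+IL-17A against DOX (right). In the left panel *Isg15*, *Herc6* and *Usp18* lie above the other genes of their families, and in the right panel each member lies below the others of its family.

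Adding IL-17A to DOX lowered *Isg15* and *Usp18*. The comparison uses the same DOX libraries as the one above. These were 2 of the 5 members, beside 0.438% of all genes tested that were called and 0.325% that were called lower. *Uba7*, *Ube2l6* and *Herc6* lay below their DOX levels but did not pass the adjusted threshold. The groups did not overlap for any of the 5 members, beside 5.61% of genes tested that lay wholly lower with IL-17A added. All 5 were at an unadjusted p under 0.05, beside 782 of all 12319 genes tested. The median log2 fold change of the members was -1.37, beside -0.03 for all genes tested. On the log2(value + 1) scale each member lay below every other gene tested in its family.

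With DOX+IL-17A, *Isg15* was at 139.9, 79.4 and 51.2 in replicates 2, 3 and 5. The highest of these was well under the lowest DOX library, and replicate 2 stood above the other two. The mean of 90.2 ± 45.3 was 21.2% of the DOX mean, and the log2 fold change was -2.33 (SE 0.38, limma adjusted p = 0.0107). *Usp18* was at 20.2, 17.3 and 30.6, with a mean of 22.7 ± 6.99, or 27.9% of the DOX mean (log2 fold change -1.74, SE 0.31, limma adjusted p = 0.0203). Both calls depended on single libraries. Without DOX replicate 3 the adjusted p was 0.0602 for *Isg15* and 0.113 for *Usp18*, and without DOX replicate 4 it was 0.0526 and 0.113. Without DOX+IL-17A replicate 3 it was 0.0871 and 0.172, and without DOX+IL-17A replicate 5 it was 0.0773 and 0.0522. Without DOX+IL-17A replicate 2 only *Usp18* missed the threshold, at 0.0919. The log2 fold change stayed between -2.7 and -1.99 for *Isg15* and between -1.97 and -1.53 for *Usp18* in these fits.

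*Herc6* was at 32.7, 37.6 and 35.3 with DOX+IL-17A, the most even of the members in this group. Its mean of 35.2 ± 2.46 was 40.8% of the DOX mean (log2 fold change -1.25, SE 0.30, limma adjusted p = 0.119). It was called with voom (adjusted p = 0.0416), with DESeq2 (0.00527), in a fit of these 2 groups alone (0.00728) and without control replicate 1 (0.00717). It was also called without both control replicate 1 and DOX replicate 1, an alternative added after the data were seen (log2 fold change -1.38, adjusted p = 0.00618). *Uba7* was at 6.13, 5.16 and 11.2, with a mean of 7.51 ± 3.26, or 37.0% of the DOX mean (log2 fold change -1.37, SE 0.36, limma adjusted p = 0.195). It was the only member whose DOX+IL-17A mean lay under its control mean. *Ube2l6* was at 0.818, 3.87 and 1.87, on 4, 39 and 30 reads, and its log2 fold change was -1.26 (SE 0.47, limma adjusted p = 0.544).

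The members that rose with DOX did not all return to the control level when IL-17A was present. DOX+IL-17A exceeded control for *Isg15* (log2 fold change 2.19, SE 0.41, limma adjusted p = 0.0024), *Herc6* (1.27, SE 0.32, adjusted p = 0.0149) and *Usp18* (1.17, SE 0.33, adjusted p = 0.0252). These were 3 of the 5 members, beside 12.9% of all genes tested that were called and 6.95% called higher. Of the difference between the DOX and control means, 17.7% remained with IL-17A for *Isg15*, 18.7% for *Usp18* and 28.1% for *Herc6*. The *Herc6* call was lost without control replicate 1 (log2 fold change 0.83), or without DOX+IL-17A replicate 3 (adjusted p = 0.0509). The *Usp18* call was lost without control replicate 5, DOX+IL-17A replicate 2 or DOX+IL-17A replicate 5 (adjusted p = 0.0597, 0.0527 and 0.0884), and with voom (0.0539). In a fit of these 2 groups alone neither *Usp18* (adjusted p = 0.0888) nor *Herc6* (0.0976) was called. *Uba7* (log2 fold change -0.84, adjusted p = 0.145) and *Ube2l6* (0.57, adjusted p = 0.458) were not called.

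**Figure D3:**
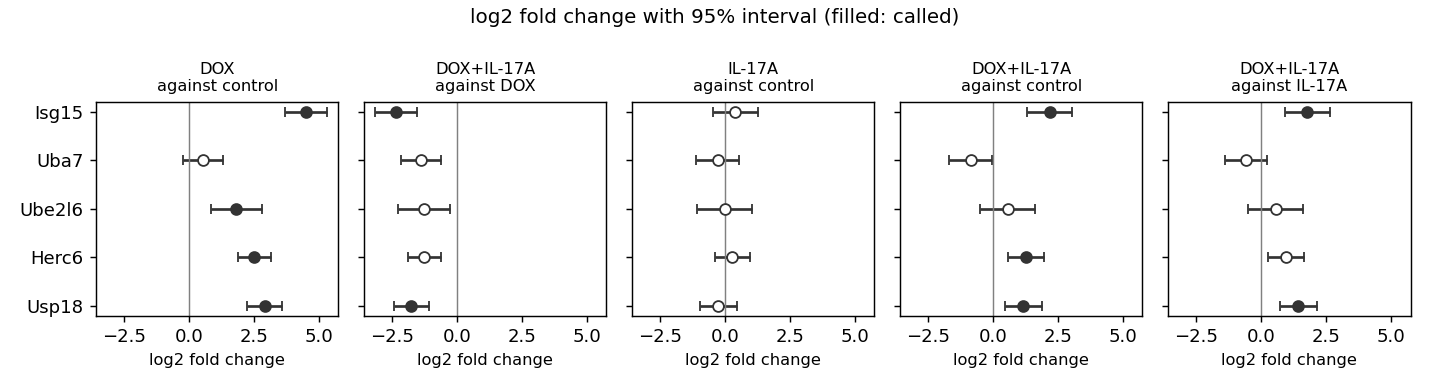
Fitted log2 fold change (horizontal axis) with its 95% interval for each member in 5 comparisons. Filled points were called, which holds for 4 members in DOX against control, 2 in DOX+IL-17A against DOX, none in IL-17A against control, 3 in DOX+IL-17A against control and 2 in DOX+IL-17A against IL-17A.

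IL-17A alone left no member past the threshold. *Isg15* was at 39.7, 28.5 and 11.1, *Herc6* at 16.9, 21.4 and 14.6, and *Uba7* at 6.08, 16.3 and 13.4, each overlapping its control range. *Ube2l6* was at 1.46, 1.73 and 0.164, the last on 2 reads. *Usp18*, at 6.42, 8.49 and 7.88, lay wholly below its 3 control libraries, the only member whose groups did not overlap, beside 2.87% of genes tested that lay wholly lower. The exact permutation test gave p = 0.1, the smallest that 3 against 3 libraries allow, and the log2 fold change was -0.26 (95% interval -0.97 to 0.45). For *Isg15* the interval ran from -0.46 to 1.26, so a change of 2-fold upwards is inside it. With limma 0 of 5 members were called and 0 were at an unadjusted p under 0.05, beside 380 of all 12319 genes tested. Voom, edgeR and DESeq2 also called 0, beside 0.00812% of all genes tested that were called by limma.

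Set against IL-17A alone, the combination held higher *Isg15* (log2 fold change 1.79, SE 0.41, limma adjusted p = 0.0108) and *Usp18* (1.43, SE 0.33, adjusted p = 0.0122), 2 of the 5 members, beside 9.84% of all genes tested that were called and 4.92% called higher. *Herc6* missed both thresholds (0.97, adjusted p = 0.0577) but was called with voom (adjusted p = 0.0445), DESeq2 (0.017) and library size scaling (0.0285). Without DOX+IL-17A replicate 2 *Isg15* was no longer called (log2 fold change 1.41, adjusted p = 0.0547).

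Whether IL-17A acted differently with and without DOX was tested as an interaction. The difference was negative for all 5 members, at -2.74 (SE 0.56) for *Isg15*, -1.54 for *Herc6*, -1.49 for *Usp18*, -1.26 for *Ube2l6* and -1.10 for *Uba7*. With limma no member passed the adjusted threshold (adjusted p = 0.247 for *Isg15*), and 0% of all genes tested were called. At an unadjusted p under 0.05 there were 3 members and 556 genes. Voom and edgeR called no member, while DESeq2 called *Isg15* (adjusted p = 0.00522) among 18 genes. The main test thus did not show that the effect of IL-17A on any member depended on DOX.

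In the order of group means, *Isg15* and *Herc6* ran from control through IL-17A and DOX+IL-17A to DOX. Neighbours did not overlap except for control and IL-17A. *Usp18* ran from IL-17A through control and DOX+IL-17A to DOX, with no overlap between neighbours. *Ube2l6* had the same order, but only DOX was separate from its neighbour. *Uba7* ran from DOX+IL-17A through IL-17A and control to DOX, and each pair of neighbours overlapped.

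Among 16 tested genes that carry the interferon signal to these genes, 5 were called higher and none lower with DOX by limma, beside 9.15% called higher over all genes tested. They included *Irf7*, *Irf5*, *Stat2* and *Ifngr2*, a subunit of the interferon gamma receptor. In DOX+IL-17A against DOX 3 were called lower and none higher, *Irf7* and *Stat2* among the former, beside 0.325% called lower over all genes tested. *Irf7*, a transcription factor of the interferon response, was at 12.7, 6.33 and 9.67 in control, 63.8, 67.4, 126 and 139 in DOX, and 24.5, 19.9 and 30.5 in DOX+IL-17A libraries. As for *Usp18*, DOX replicates 3 and 4 were the highest and no groups among these 3 overlapped. Its log2 fold change was 3.20 with DOX (SE 0.34, limma adjusted p = 2.44e-05) and -1.88 for IL-17A added to DOX (SE 0.34, adjusted p = 0.0203). *Stat2* rose with DOX by 1.83 (SE 0.26, adjusted p = 0.000254) and fell by 1.33 (SE 0.26, adjusted p = 0.0353). *Irf5* rose by 2.36 with DOX (SE 0.53, adjusted p = 0.00622). *Irf9*, a part of the complex that binds ISREs, had a log2 fold change of 0.84 (adjusted p = 0.0267), under the fold threshold. The receptor genes *Ifnar1* (-0.56, adjusted p = 0.162) and *Ifnar2* (-0.31, adjusted p = 0.276) were not called with DOX. With IL-17A added their log2 fold changes were 0.73 (adjusted p = 0.585) and 0.74 (adjusted p = 0.208), opposite in sign to those of *Irf7* and *Stat2*. *Ifnar2* was at 66.1 to 99.6 in DOX and 136 to 141 in DOX+IL-17A libraries, which did not overlap, while the ranges of *Ifnar1* did. *Ifnb1*, the gene of interferon beta, was not listed. The median over the 16 genes was 0.33 with DOX and 0.02 for IL-17A added to DOX, beside 0.09 and -0.03 for all genes tested. Leaving out 1 library at a time, *Irf7* kept its call for IL-17A added to DOX in 8 and *Stat2* in 6 of 13 fits.

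**Figure D4:**
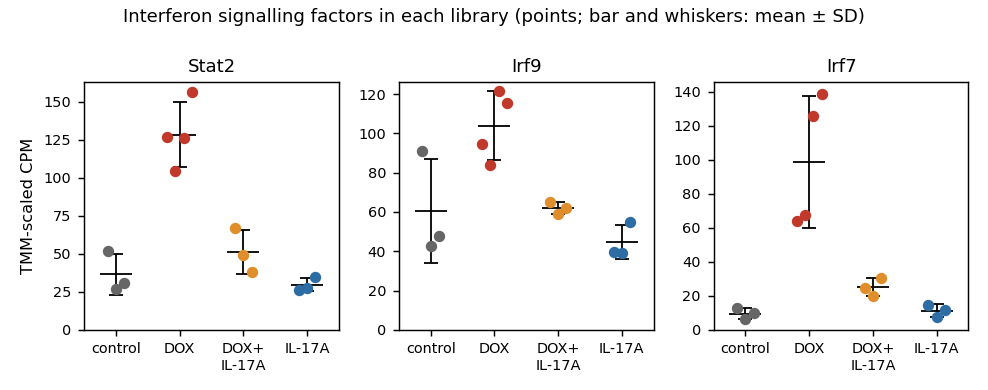
Values of *Stat2*, *Irf9* and *Irf7* in TMM-scaled CPM (vertical axis) in each library (points), with the mean and SD of each group. For *Stat2* and *Irf7* the 4 DOX libraries lie above the control and the DOX+IL-17A libraries, and for *Irf9* control replicate 1 lies within the DOX range.

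Of 8 other tested enzymes with a reported part in adding or removing ISG15, 5 were at an unadjusted p under 0.05 with DOX. Of these 4 were higher and 1 lower, and 4491 of all 12319 genes tested were at that threshold. *Usp16*, a protease for ISG15 and ubiquitin, alone was called, at a log2 fold change of 1.14 (SE 0.25, limma adjusted p = 0.00499). The share called was 12.5%, beside 15.3% over all genes tested. Its mean was 75.4 ± 15.5 in control and 166 ± 21.2 in DOX libraries. In contrast to *Usp18*, its mean stayed at 161 ± 63.4 with IL-17A added, a log2 fold change of -0.11 (SE 0.25, adjusted p = 0.998). The ligase gene *Trim25* (0.86, adjusted p = 0.0198) and *Skp2*, which marks USP18 for degradation (0.68, adjusted p = 0.0269), were under the fold threshold. *Arih1* was at -0.33 (adjusted p = 0.33). For IL-17A added to DOX limma called 0 of these 8, with 0 at an unadjusted p under 0.05, and voom, edgeR and DESeq2 called 0. Over all 12319 genes tested limma called 0.438%, a share at which a list of 8 may hold none, and 782 were at that unadjusted p.

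Among genes whose proteins are known targets of ISG15, 24 were tested, 8 were called higher and 1 lower with DOX, and 3 were called lower with IL-17A added. Over all genes tested, 9.15% were called higher and 6.18% lower with DOX, and 0.325% were called lower with IL-17A added. Among those that rose were *Ifit1*, *Mx1* and *Ifih1*. *Ifit1*, which binds foreign RNA, was at 12.5, 12.4 and 10.3 in control, 103, 125, 157 and 143 in DOX, and 54.4, 21.5 and 13.9 in DOX+IL-17A libraries. It rose by a log2 fold change of 3.37 (SE 0.41, limma adjusted p = 9.30e-05) and fell by 2.31 (SE 0.41, adjusted p = 0.0203). *Mx1*, an antiviral GTPase, was at 0.169, 0 and 0.471 in control libraries, on at most 4 reads, and at 6.92, 1.97, 12.2 and 15.8 in DOX libraries. *Ifih1*, a sensor of viral RNA, rose by 1.52 (SE 0.25, adjusted p = 0.000852) and fell by 1.24 (SE 0.25, adjusted p = 0.0408). When each library was left out in turn, the fall of *Ifit1* kept its call in 9 and that of *Ifih1* in 3 of 13 fits. The median over the 24 genes was 0.23 with DOX and -0.03 with IL-17A added, beside 0.09 and -0.03 for all genes tested. Several of the targets that moved are themselves interferon-induced genes, and this list was drawn up with earlier results known.

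In the wider families of the members the calls went both ways. With DOX, 0 genes were called higher and 1 lower (*Gabarap*, -1.12, adjusted p = 0.0493) among 18 modifiers, 2 higher and 0 lower among 33 E2 enzymes (*Ube2g2* and *Atg3*), 1 higher and 2 lower among 24 HECT ligases, and 5 higher and 3 lower among 46 ubiquitin-specific proteases. The proteases called were 17.4% and the HECT ligases called 12.5% of those tested, beside 15.3% over all genes, of which 9.15% were higher and 6.18% lower. The median log2 fold change was 0.29 for the modifiers, 0.05 for the E2 enzymes, -0.43 for the HECT ligases, of which 18 lay below 0, and 0.17 for the proteases. *Gabarap* was called in 3 of 11 other settings, *Usp38* in 6, *Usp34* in 8 and *Ube2g2* in 9. Neither voom nor edgeR called *Usp38*. The proteases with the largest rise were *Usp44* (1.62), *Usp38* (1.43) and *Usp27x* (1.23), and those with the largest fall were *Usp11* (-1.98), *Usp9x* (-1.14) and *Usp34* (-1.06). *Ube2l3*, the E2 most akin to *Ube2l6*, was at 0.07 (SE 0.19), *Herc3* at 0.00 (SE 0.46) and *Ubb* at 0.63 (SE 0.45, adjusted p = 0.323). In DOX+IL-17A against DOX limma, voom, edgeR and DESeq2 called none in any of the 5 families. Over all 12319 genes tested limma called 0.438%, a share at which lists of this size may hold none. At an unadjusted p under 0.05 there was 1 HECT ligase and no gene of the other 4 families, beside 782 of all genes tested.

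The genes whose pattern lay nearest to that of the members were found by the root mean square difference of centred log2 values over the 13 libraries, which is a description and carries no test. The 8 nearest to the mean of the members were *Gbp7*, *Oasl2*, *Xaf1*, *Adh6b*, *Gbp8*, *Phf11d*, *Gadd45g* and *Igtp*, at differences of 0.25 to 0.39. *Gbp7*, *Gbp8* and *Igtp* encode interferon-inducible GTPases, and *Oasl2* a relative of the oligoadenylate synthetases. *Xaf1*, *Adh6b*, *Phf11d* and *Gadd45g* belong to neither family. The log2 fold changes of the 8 genes with DOX ran from 2.12 to 2.97 and with IL-17A added from -1.74 to -1.09. *Gbp7*, the nearest, was at 27.2, 24.2 and 22.9 in control, 108, 113, 232 and 226 in DOX, 47.0, 44.1 and 49.7 in DOX+IL-17A, and 25.7, 34.0 and 25.5 in IL-17A libraries. Its DOX replicates 3 and 4 stood above replicates 1 and 2, as they did for *Usp18*. The 8 genes were picked over these same libraries, so this likeness and their fold changes follow in part from the choice.

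Taken one by one, the members had different neighbours. *Usp18* lay nearest to *Trim30a* (0.17), *Gbp4* (0.27) and *Phf11d* (0.30), and *Herc6* to *Oasl2* (0.30), *Samd9l* (0.31) and *Mitd1* (0.31). *Isg15* lay nearest to the chemokine gene *Cxcl10* (0.36), then *Ifi44* (0.48) and *Ifit1* (0.52). *Uba7* lay nearest to *Rasgef1b* (0.28), *Zup1* (0.30) and *Tfcp2l1* (0.35), whose log2 fold changes with DOX were only 0.25 to 0.70. *Ube2l6*, on its few reads, had no neighbour closer than *Sema7a* (0.45), *Tapbpl* (0.45) and *Spag1* (0.47). Among the members themselves *Herc6* and *Usp18* were the closest pair (0.53) and *Isg15* and *Uba7* the farthest (1.84). Of the 6 genes nearest to the mean that had a promoter window, 2 held the full ISRE core (*Gbp7* and *Igtp*).

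**Figure D5:**
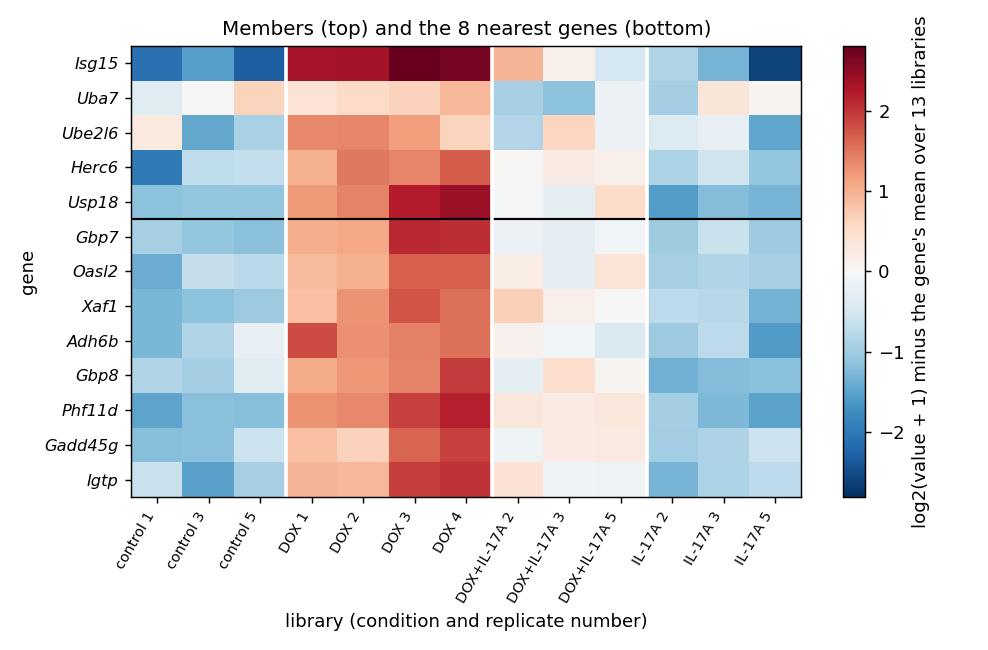
Heat map of log2(value + 1) minus each gene's mean over the 13 libraries (colour scale), for the 5 members (above the black line) and the 8 genes nearest to their mean (below it), with libraries in columns by group. The 4 DOX columns are highest in nearly every row, whereas *Uba7* varies least with DOX.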

How the data were processed

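The file deposited by the authors gives 1 normalized signal value, a TMM-scaled CPM, for each gene in each of 13 libraries. Per the labels and the study's methods, the authors made QuantSeq 3′ mRNA FWD libraries, read 75 bases from one end, trimmed them with Trimmomatic after FastQC, aligned them to mm10 (STAR), assigned reads to genes (featureCounts) and scaled the result by TMM. The strand setting and the annotation used for counting are not given in the sources used here. Of 13223 entries, 1 identical second entry was dropped, and 17 genes carried names turned into dates. All values (100%, tolerance 0.01) divided evenly by the worth of 1 read in their library, which gave back the reads. Replicates of a group differed beyond sampling noise (chi-square per degree of freedom 7.89 to 186).

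The main test was limma 3.58.1 with trend in R 4.3.3 on log2(value + 1), condition only, over all 13 libraries (9 residual degrees of freedom) and the 12319 genes kept by edgeR's filterByExpr, with Benjamini-Hochberg adjustment. A call needed a change above 2-fold with an adjusted p below 0.05, and for interactions the adjusted p alone. Single genes were compared by exact 2-sided permutation tests over libraries (scipy 1.17.1). Alternatives were voom with limma, edgeR 4.0.16 and DESeq2 1.42.0 on recovered reads, library size scaling, other filters, a pseudocount of 0.1, only the groups compared, the adjusted p alone, a replicate block and leaving out each library. Leaving out 2 libraries together and voom with a block were added after the data were seen. On simulated data for DOX against control (12319 genes), the main test recovered 68 of 100 genes changed 4-fold and 37 of 100 changed 2.5-fold, with 8 false calls.

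The members, lists and markers were chosen with earlier results of these data known, so lists carry counts and medians but no test. Genes named beside the members were fixed genes of the pathway, up to 3 called genes per list and direction, and the nearest genes over 13 libraries. The muscle, red blood cell and liver lists served only to check libraries. Values of 1 named gene are not reported here. No promoter entry was found for *Usp18*, and no protein sequences were used here. Of the last 400 bases of each member's transcripts, stretches of 40 bases recurred in 3 other genes for *Isg15*, 1 for *Uba7*, 9 for *Ube2l6* (2 of them listed), 1 for *Herc6* and 0 for *Usp18*. The 3′ end of *Usp18* is covered by *Gm44148* on the opposite strand.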

Additional observations from a re-analysis of the deposited data

How the results depend on the processing

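For DOX against control the number of members called was 4 in the main test, in every fit that left out 1 library and in the other settings except edgeR, where it was 3. For DOX+IL-17A against DOX it was 2, against 3 with voom, with DESeq2, with only the groups compared or without control 1 and DOX 1, and it ranged from 0 to 3 when each library was left out in turn. For DOX+IL-17A against control it was 3, fell to 2 with voom or without control 1 and DOX 1 and to 1 when only the groups compared were fitted, and ranged from 2 to 3 over left-out libraries. For DOX+IL-17A against IL-17A it was 2, ranged from 1 to 2 over left-out libraries and was 3 with voom, with or without a block, with DESeq2 or with library size scaling. For the interaction it was 0, and 1 with DESeq2. The cause of these shifts was not tested. Replicate numbers were not treated as pairing, since the deviations of 13 same-numbered pairs correlated at -0.175 to 0.491, with 5 pairs at or under 0.1. With the replicate block DOX+IL-17A against DOX had 1 member called, *Isg15* (log2 fold change -2.09, adjusted p = 0.0232) but not *Usp18* (-1.69, adjusted p = 0.0754), and 14 genes in all, beside 54 without it, and DOX against control kept 4 members called. The count of genes called there was 93 with DESeq2, 87 with only the groups compared, 23 with a pseudocount of 0.1, 85 without control 1 and DOX 1 and 34 with voom and a block. It was 1 to 88 over left-out libraries. For IL-17A against control 1 gene was called, 15 with DESeq2 and 0 with voom or edgeR. For DOX+IL-17A against control 599 genes were called with only the groups compared, beside 1589. Scaling by library size shifted the all-gene median with DOX from 0.09 to 0.24 (log2) and the calls from 1127 higher and 761 lower to 1516 and 488. Signs changed only for IL-17A against control, where no member was called. Over left-out libraries *Uba7* ran from -0.53 to 0.11 (positive without IL-17A replicate 2), *Herc6* from -0.14 to 0.51 (negative without control 1, alone or with DOX 1) and *Ube2l6* from -0.37 to 0.48. *Herc6* became -0.029 with voom and a block. *Ube2l6*, at 0.00 in the main test, became -0.11 with edgeR, -0.17 with DESeq2, -0.0019 with library size scaling, and was negative without control replicate 3 or 5 or IL-17A replicate 2 or 3. Few reads limit *Ube2l6*, which had 2 to 17 reads in control and IL-17A libraries.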

Other observations

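Within each library the value of *Isg15* was divided by that of *Usp18*, a ratio that serves only to compare groups and not the levels of the genes. It was 1.79, 2.61 and 1.44 in control libraries and 7.29, 6.46, 5.12 and 3.90 in DOX libraries. These groups did not overlap (exact 2-sided permutation test, p = 0.0571, the smallest that 4 against 3 libraries allow, and 0.357 after adjustment over the 25 ratios compared). With DOX+IL-17A it was 6.91, 4.60 and 1.68, which overlapped DOX (exact permutation test, p = 0.457). *Isg15* per *Uba7* was 1.64, 1.90 and 0.676 in control and 21.5, 19.6, 25.1 and 18.3 in DOX libraries, also without overlap. None of the 25 comparisons passed after adjustment. None could, since the smallest p of the exact permutation test is 0.0571 with 4 against 3 libraries and 0.1 with 3 against 3. *Usp18* per *Herc6* overlapped in each of its 5 comparisons.

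In both groups that received IL-17A, *Isg15* was highest in replicate 2 (139.9 with DOX, 39.7 alone) and lowest in replicate 5 (51.2 and 11.1). *Cxcl10* had the same highest and lowest libraries, at 79.5 and 22.0 with DOX and 13.9 and 3.28 alone. It had been picked as the gene nearest to *Isg15* over these same libraries, so this likeness follows in part from the choice. *Usp18* did not, since replicate 5 was its highest library with DOX+IL-17A (30.6).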
